A study of Mus musculus with 6 samples.

Results

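The collagen genes were taken as all protein-coding genes of the count table whose symbol has the form Col, a number, a and a number. This gave 44 genes among the 54532 genes listed, of which 22046 are protein-coding. They comprise 11 chains of fibrillar collagens, 6 chains of basement membrane collagen (type IV), 9 chains of FACITs (fibril-associated collagens with interrupted helices), 6 chains of microfibrillar collagen (type VI) and 12 chains of other types. Their RNA was measured in eWAT (epididymal white adipose tissue), a visceral fat depot of male mice, of 3 cachectic mice and 3 control mice. All mice were male C57BL/6 mice of 6 to 10 weeks of age. The cachectic mice bore tumors of LLC cells (Lewis lung carcinoma, a cancer cell line of mouse origin) placed under the skin and had lost body weight, and tissue was harvested on day 21. The sources do not say what the control mice received in place of tumor cells, and they do not say whether a sample is the fat pad of a single mouse, so the p-values measure the spread between these samples. Where a mouse is named below, a sample is meant.

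Collagens are secreted proteins in which chains wind around each other into a helix, and they form the fibrils and sheets of the extracellular matrix. Fibrillar types I, III and V build the fibers of connective tissue, type IV builds the sheet-like network of basement membranes, type VI forms beaded microfibrils, and FACITs sit on the surface of fibrils. In fat, each adipocyte is wrapped in a basement membrane that holds type IV collagen, type VI collagen is abundant around it, and fibroblasts and adipocyte progenitors are a main source of the fibrillar types.

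The total count per sample lay between 14928766 and 18855546, and every cachexia total was below every control total. Where a gene is compared between mice, its level is in CPM (its count scaled to the library size after TMM normalization), and it is in the deposited FPKM, which also divides by gene length, wherever genes are compared with each other or summed. Of the 44 collagen genes, 33 had enough counts to be tested (filterByExpr of edgeR, 16003 genes tested in all). A gene is said to have changed only where the adjusted p of edgeR's quasi-likelihood test, with Benjamini-Hochberg adjustment over the 16003 genes, was under 0.05. Each log2 fold change is of cachectic over control mice and in most places is followed by its standard error (SE). Plain fold values, of genes that fell and of summed FPKM, divide control by cachectic mice. Values of single mice are given in the order of replicates 1, 2 and 3, and means are given with the SD (n = 3). In a principal component analysis of all genes, control replicate 1 lay apart from the other controls on the next component after the one that separated the groups (47.2 against -28.8 and -23.3). This mouse also had the highest CPM of all 6 mice for 18 of the 33 tested collagens. Many of the counts below, but not all, are therefore also given without single mice.

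Collagen RNA as a whole was lower in eWAT of cachectic mice, while the abundant type IV collagen chains Col4a1 and Col4a2 did not pass the test (log2 fold changes of -0.27 and -0.13). Of the 33 collagens tested, 20 fell and 0 rose, against 8.63% of all tested genes that fell and 9.0% that rose. The 20 were 7 of 8 tested fibrillar chains, 5 of 6 type VI chains, 4 of 6 type IV chains, 2 of 5 FACIT chains and 2 of 8 other chains. With a single mouse left out, the number that fell lay between 14 (without cachexia replicate 2) and 20 (without cachexia replicate 1), and it was 15 without control replicate 1. Over all 16003 tested genes, 1381 fell and 1440 rose with every mouse kept. In the fits without a mouse, between 472 (control replicate 3) and 1185 (cachexia replicate 3) fell. In the same 2 fits 427 and 1232 rose, and without control replicate 2 these numbers were 704 and 615. Calls lost in such fits, here and below, stand beside this loss of calls over all genes. No collagen was called higher by edgeR or by limma-voom, although 2 reached an unadjusted p under 0.05 in that direction, and DESeq2 called 1 higher, Col20a1.

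The summed FPKM of the 44 collagens was 1452, 1188 and 1419.8 in control mice and 524, 414 and 559 in cachectic mice. Every cachectic mouse was thus below every control mouse, and the means differed 2.71-fold (1353 ± 144 and 499 ± 75.5 FPKM). As a share of the FPKM of all genes, collagens made up 0.478, 0.359 and 0.424% in control mice and 0.158, 0.138 and 0.175% in cachectic mice. In whole tissue, fewer cells of a type and less RNA per cell cannot be told apart. Without Col4a1 and Col4a2, the sum of the other 42 genes differed 5.14-fold (995 ± 149 and 194 ± 56.4 FPKM). Across the 33 collagens the log2 fold change had a median of -1.66, while that of all 16003 genes was -0.00306. The values of the groups did not overlap, with the cachectic mice lower, for 22 collagens, against 20.1% of all tested genes. They did not overlap in the other direction for 3, Col20a1, Col11a2 and Col9a3, against 20.4%, and 40.5% of all tested genes did not overlap in either direction. Among the 16 collagens with a control mean of at least 10 FPKM, 13 fell, against 12.0% of the 4640 tested genes at that level.

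**Figure D1:**
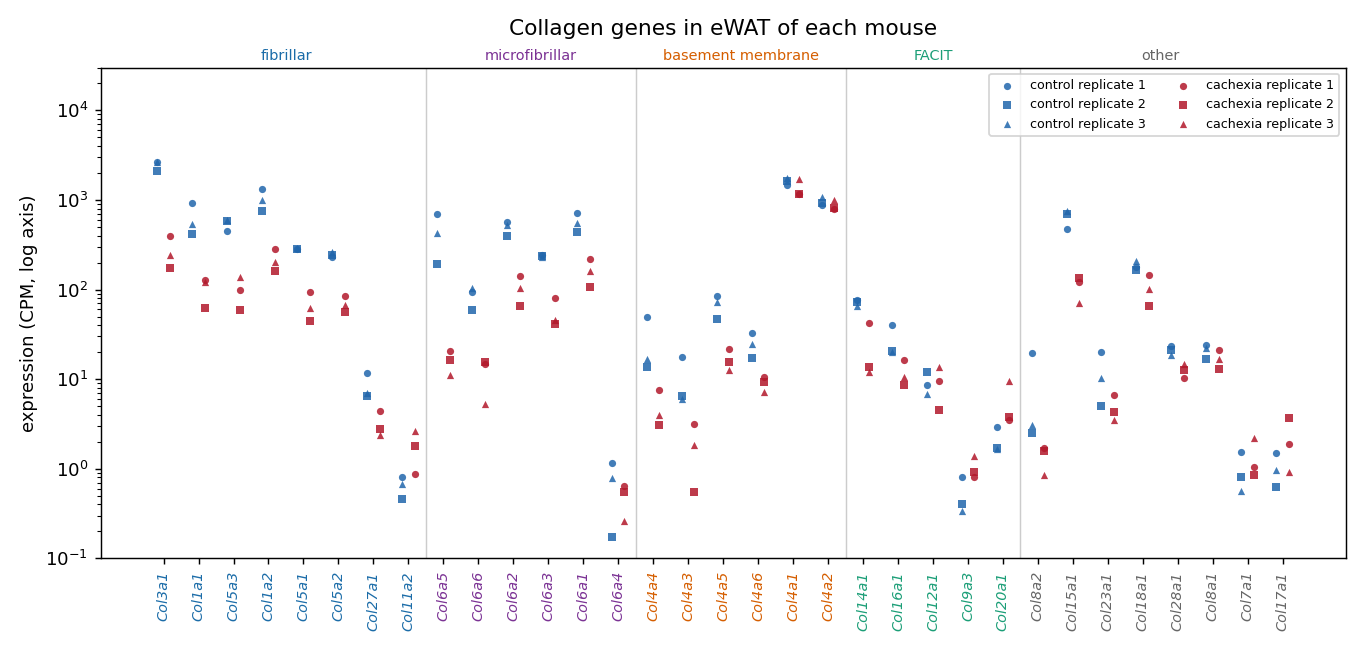
CPM (log axis) of the 33 tested collagens in each of the 3 control and 3 cachectic mice, grouped by class. Most fibrillar and type VI chains lie lower in all 3 cachectic mice, while the points of Col4a1 and Col4a2 of the groups lie close together.

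Promoter windows are shown for chains with unlike responses, the neighbors Col4a1 and Col4a2, which did not pass the test, and Col3a1 and Col6a5, which fell most. Each window runs from 250 bases before to 50 bases after the start of the gene (RefSeq, GRCm38.p6), and is printed on the strand of the gene. Capitals mark the letters CCAAT (read as ATTGG on the other strand), GGGCGG (read as CCGCCC) or TATAAA (read as TTTATA). The Col4a1 window is chr8:11312777-11313076 (minus strand), that of Col4a2 chr8:11312555-11312854 (plus strand), that of Col3a1 chr1:45311288-45311587 (plus strand) and that of Col6a5 chr9:105960594-105960893 (minus strand).
Col4a1: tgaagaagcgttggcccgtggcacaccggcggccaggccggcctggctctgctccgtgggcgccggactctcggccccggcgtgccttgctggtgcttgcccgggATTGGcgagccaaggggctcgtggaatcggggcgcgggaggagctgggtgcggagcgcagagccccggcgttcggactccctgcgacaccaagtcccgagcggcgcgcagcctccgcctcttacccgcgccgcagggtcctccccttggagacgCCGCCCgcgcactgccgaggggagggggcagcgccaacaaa
Col4a2: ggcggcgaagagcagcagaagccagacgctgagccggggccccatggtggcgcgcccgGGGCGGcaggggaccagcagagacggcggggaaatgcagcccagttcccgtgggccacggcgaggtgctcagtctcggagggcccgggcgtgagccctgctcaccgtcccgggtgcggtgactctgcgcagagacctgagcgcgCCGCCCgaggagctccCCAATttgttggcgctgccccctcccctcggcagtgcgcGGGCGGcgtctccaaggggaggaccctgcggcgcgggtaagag
Col3a1: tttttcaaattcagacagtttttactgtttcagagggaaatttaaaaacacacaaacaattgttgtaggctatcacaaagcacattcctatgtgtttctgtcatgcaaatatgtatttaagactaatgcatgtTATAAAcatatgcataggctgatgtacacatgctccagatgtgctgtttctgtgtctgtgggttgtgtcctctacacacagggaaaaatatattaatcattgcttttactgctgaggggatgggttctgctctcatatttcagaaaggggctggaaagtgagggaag
Col6a5: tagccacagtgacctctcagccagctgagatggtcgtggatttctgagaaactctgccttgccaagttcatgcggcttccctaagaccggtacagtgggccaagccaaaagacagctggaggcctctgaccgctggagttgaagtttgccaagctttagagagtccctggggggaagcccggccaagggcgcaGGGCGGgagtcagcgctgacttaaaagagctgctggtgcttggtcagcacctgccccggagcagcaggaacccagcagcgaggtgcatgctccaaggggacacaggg
The Col4a1 and Col4a2 genes lie head to head on chromosome 8, so their windows share 78 bases, and the files give the genes themselves an overlap of 22 bases. Both windows are rich in G and C (74.0% and 73.7%) and hold GGGCGG, once for Col4a1 and at 3 places for Col4a2, and 1 CCAAT each. The GGGCGG of Col4a1 lies in the shared bases and is the last of the Col4a2 sites read on the other strand. It is therefore counted in both windows. The Col3a1 window has a GC content of 37.7%, 1 TATAAA and neither of the other motifs, and the Col6a5 window has a GC content of 60.0% and 1 GGGCGG. Windows were found for 35 of the 44 collagens (38 windows). Motifs were searched on both strands, and a CCGCCC and a CCAAT that share bases were each counted. GGGCGG stood in 23 of the 38 collagen windows (60.5%) and in 11 of the 17 windows of collagens that fell (64.7%), against 35.7% of all 32851 windows. CCAAT stood in 34.2% of collagen windows, 23.5% of the windows of collagens that fell and 37.4% of all windows, and TATAAA in 13.2%, 5.88% and 13.6%. These matches describe letters and do not show that a factor binds. Col12a1, Col14a1, Col1a1, Col22a1, Col26a1, Col2a1, Col4a3, Col5a2 and Col9a3 were without a window.

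The fibrillar chains showed the largest loss of RNA of any class by summed FPKM. Their sum was 638, 477 and 578 FPKM in control mice and 116, 59.0 and 92.2 FPKM in cachectic mice, a 6.34-fold difference of the means (564 ± 81.3 and 89.0 ± 28.5). The highest cachectic mouse was far below the lowest control mouse. Their share of collagen FPKM was 43.9, 40.2 and 40.7% in control mice and 22.1, 14.2 and 16.5% in cachectic mice. Across the 8 chains tested, the log2 fold change had a median of -2.18.

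Col3a1 (chr1:45311538-45349706) encodes the chain of type III collagen, which forms fine reticular fibers, and it had the highest FPKM of all collagens in control mice. Its level was 2651, 2118 and 2655 CPM in control mice and 398, 174 and 244 CPM in cachectic mice. The groups were far apart, and Col3a1 fell 9.09-fold (log2 fold change -3.18 ± 0.34 SE, adjusted p = 0.00212, 95% interval -3.96 to -2.41). By mean FPKM it moved from the highest collagen in control mice (249 ± 31.5) to the 4th in cachectic mice (27.1 ± 11.5). Col1a1 (chr11:94936224-94953042) and Col1a2 (chr6:4504814-4541544) encode the chains of type I collagen, the main collagen of thick fibers. Col1a1 was at 932, 422 and 543 CPM in control mice and 129, 61.7 and 121 CPM in cachectic mice (log2 fold change -2.61 ± 0.38 SE, adjusted p = 0.00564). Col1a2 was at 1341, 751 and 1001 CPM in control mice and 285, 163 and 202 CPM in cachectic mice (log2 fold change -2.25 ± 0.29 SE, adjusted p = 0.00382). For both chains control replicate 1 was the highest mouse and control replicate 2 the lowest control, and no cachectic mouse reached the control range. The ratio of Col1a1 to Col1a2 in FPKM was 1.32, 1.06 and 1.03 in control mice and 0.856, 0.716 and 1.13 in cachectic mice, so the groups overlapped (two-sided exact permutation p = 0.3). The ratio of Col3a1 to Col1a2 was 2.50, 3.57 and 3.36 in control mice and 1.77, 1.35 and 1.53 in cachectic mice. These values did not overlap, with a difference of -1.01 on the log2 scale and a two-sided exact permutation p of 0.1. With 3 mice in each group 0.1 is the smallest p this test can give. Of the 16 ratios between chains computed, 10 reached it (0.16 after Benjamini-Hochberg adjustment over the 16), and no ratio can pass 0.05.

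Type V collagen is a minor partner of type I fibrils that controls their diameter, and all of its chains fell. Col5a1 (chr2:27886425-28039514) was at 283, 284 and 291 CPM in control mice and 92.8, 44.6 and 62.5 CPM in cachectic mice (log2 fold change -2.10 ± 0.26 SE, adjusted p = 0.00326). Col5a2 (chr1:45374321-45503282) was at 232, 242 and 264 CPM and 84.4, 56.0 and 66.6 CPM, and had the smallest p of all collagens (log2 fold change -1.83 ± 0.18 SE, adjusted p = 0.00162). Col5a3 (chr9:20770050-20815067) was at 449, 576 and 605 CPM and 99.8, 58.7 and 137 CPM (log2 fold change -2.46 ± 0.31 SE, adjusted p = 0.00356). Control mice varied little in Col5a1 and Col5a2, and in none of the 3 chains did the groups overlap. Control replicate 1, highest for type I chains, was the lowest control for Col5a2 and Col5a3. In FPKM, Col5a3 was the most abundant type V chain (78.8 ± 11.9 in control and 14.1 ± 5.62 in cachectic mice), ahead of Col5a1 (33.3 ± 0.518 and 7.67 ± 2.83) and Col5a2 (25.3 ± 1.69 and 7.03 ± 1.48). Col5a2 lies tail to tail with Col3a1 on chromosome 1, with 24614 bases between them.

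Col27a1, a fibrillar chain known from cartilage, was low, with 11.8, 6.42 and 7.03 CPM in control mice and 4.43, 2.76 and 2.36 CPM in cachectic mice (log2 fold change -1.40 ± 0.36 SE, adjusted p = 0.0344). Its groups did not overlap, but the call was lost with single mice left out. With control replicates 1, 2 and 3 left out in turn, the adjusted p was 0.0760, 0.0587 and 0.0818, and with cachexia replicates 2 and 3 left out it was 0.0876 and 0.0825. Col11a2, a chain of type XI collagen, did not pass the test, with 0.803, 0.459 and 0.680 CPM in control mice and 0.875, 1.78 and 2.62 CPM in cachectic mice (log2 fold change 1.42 ± 0.50 SE, adjusted p = 0.089), and every cachectic mouse was above every control mouse. Col2a1, Col11a1 and Col24a1 were not tested. The other 6 fibrillar chains that fell did so under every setting tried.

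**Figure D2:**
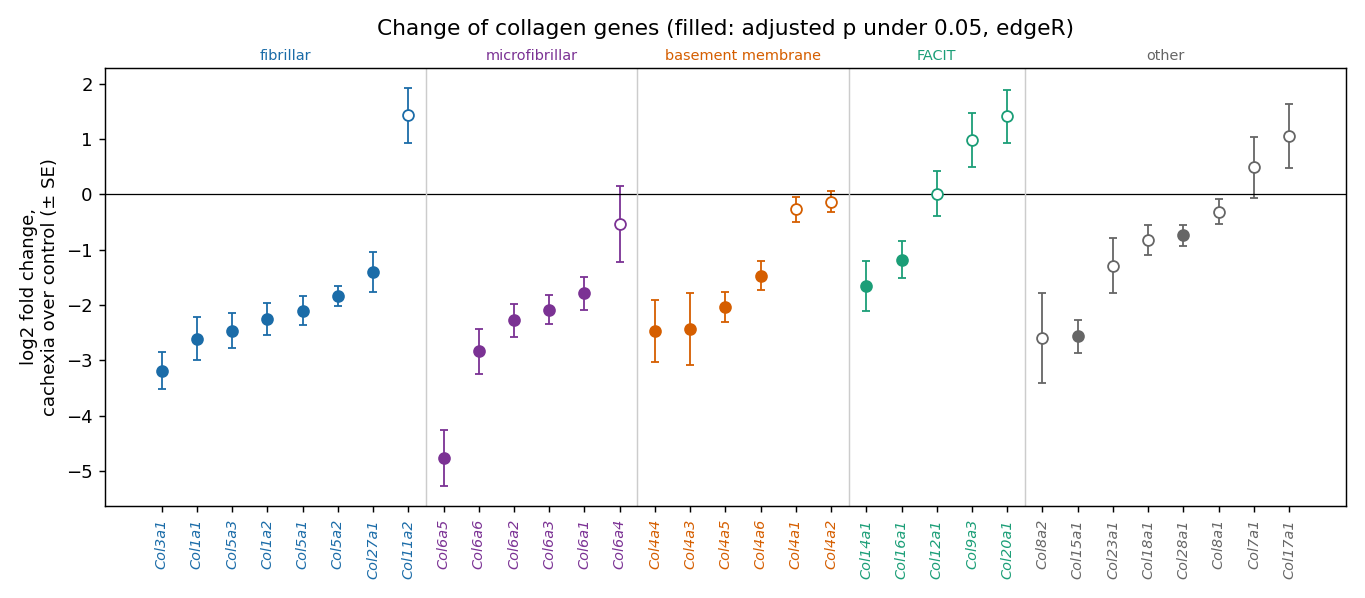
Log2 fold change of each of the 33 tested collagens in cachectic over control mice, with bars of 1 standard error, by class. Filled points have an adjusted p under 0.05. Col6a5 lies lowest at -4.77, no filled point lies above 0, and Col4a1 (-0.27) and Col4a2 (-0.13) lie close to 0.

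Type VI collagen, the microfibrillar collagen that surrounds adipocytes, fell in 5 of its 6 chains, with a median log2 fold change of -2.18. Its summed FPKM was 332, 191 and 262 in control mice and 76.7, 38.4 and 53.2 in cachectic mice, a 4.66-fold difference of the means (262 ± 70.0 and 56.1 ± 19.3). The groups did not overlap, and all 5 calls held under every setting tried. Col6a1, Col6a2 and Col6a3 encode the classical chains, which assemble together. Col6a1 (chr10:76708792-76726168) was at 708, 437 and 551 CPM in control mice and 222, 108 and 159.8 CPM in cachectic mice (log2 fold change -1.79 ± 0.30 SE, adjusted p = 0.00831). Col6a2 (chr10:76595762-76623630) was at 571, 399.6 and 530.4 CPM and 141, 64.7 and 104 CPM (log2 fold change -2.28 ± 0.30 SE, adjusted p = 0.00382). Col6a3 (chr1:90765923-90843971), whose chain carries the C-terminal fragment called endotrophin, was at 242, 238 and 232 CPM and 81.0, 41.0 and 45.6 CPM (log2 fold change -2.09 ± 0.26 SE, adjusted p = 0.00351). In none of them did a cachectic mouse reach the control range, and in each the cachectic mouse with the highest level was replicate 1. The ratio of Col6a1 to Col6a2 in FPKM was 2.36, 2.08 and 1.98 in control mice and 2.99, 3.18 and 2.92 in cachectic mice, higher in every cachectic mouse than in every control mouse (difference 0.51 on the log2 scale, two-sided exact permutation p = 0.1). The ratio of Col6a3 to Col6a2 differed by 0.18 on the log2 scale (two-sided exact permutation p = 0.5).

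Col6a4, Col6a5 and Col6a6 encode long chains that can take the place of the Col6a3 chain, and they lie next to each other on the same strand of chromosome 9. Col6a5 (chr9:105856078-105960643) had the largest difference of all tested collagens, with 698, 191 and 422 CPM in control mice and 20.6, 16.3 and 11.1 CPM in cachectic mice. The controls spread over a wide range, with control replicate 2 lowest and control replicate 1 highest, yet every cachectic mouse was far below them. Col6a5 fell 27.3-fold (log2 fold change -4.77 ± 0.51 SE, adjusted p = 0.00217, 95% interval -5.94 to -3.60). By mean FPKM it was the 10th collagen in control mice (45.9 ± 26.7) and the 19th in cachectic mice (1.66 ± 0.498). The ratio of Col6a5 to Col6a3 in FPKM was 3.66, 1.02 and 2.32 in control mice and 0.323, 0.504 and 0.309 in cachectic mice (difference -2.47 on the log2 scale, two-sided exact permutation p = 0.1). In other words, Col6a5 was above Col6a3 per length in all 3 controls and below it in all 3 cachectic mice. Col6a6 (chr9:105687809-105828160), 27917 bases from Col6a5, was at 95.0, 58.4 and 103 CPM in control mice and 14.9, 15.5 and 5.31 CPM in cachectic mice (log2 fold change -2.84 ± 0.40 SE, adjusted p = 0.00504). The groups did not overlap. Col6a4, 28810 bases from Col6a5 on its other side, was near the limit of detection, with 1.15, 0.172 and 0.793 CPM in control mice and 0.642, 0.553 and 0.262 CPM in cachectic mice (log2 fold change -0.54 ± 0.69 SE, adjusted p = 0.624).

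In type IV collagen, the abundant chains and the minor chains differed in what they showed. Col4a1 and Col4a2 assemble into the common network of basement membranes, and neither passed the test. Col4a1 (chr8:11198423-11312826) was at 1468, 1643 and 1769 CPM in control mice and 1162, 1167 and 1719.7 CPM in cachectic mice (log2 fold change -0.27 ± 0.23 SE, adjusted p = 0.438, 95% interval -0.79 to 0.25). Cachexia replicate 3 lay within the control range, and the other cachectic mice lay below it. Col4a2 (chr8:11312805-11449287) was at 877, 931 and 1071 CPM and 799, 819 and 1005 CPM (log2 fold change -0.13 ± 0.18 SE, adjusted p = 0.647, 95% interval -0.56 to 0.29), and its groups overlapped in the same way. Both intervals end above the log2 fold changes of Col3a1 and of the 5 type VI chains that fell. In FPKM, Col4a1 was the 2nd collagen in control mice (215 ± 19.7) and the highest in cachectic mice (177 ± 41.7). Col4a2 went from the 3rd place (143 ± 14.9) to the 2nd (129 ± 16.6). The ratio of Col4a1 to Col4a2 was 1.49, 1.56 and 1.46 in control mice and 1.29, 1.26 and 1.52 in cachectic mice, with overlapping groups (two-sided exact permutation p = 0.3).

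The composition of collagen RNA shifted accordingly. Col4a1 and Col4a2 together made up 22.4, 29.9 and 27.7% of collagen FPKM in control mice and 51.7, 65.9 and 66.7% in cachectic mice. Thus they were the smaller part in every control mouse and the larger part in every cachectic mouse. The ratio of Col4a1 to Col3a1 in FPKM was 0.729, 1.02 and 0.876 in control mice and 3.84, 8.81 and 9.26 in cachectic mice, a difference of 2.97 on the log2 scale (two-sided exact permutation p = 0.1). The ratio of Col4a1 to Col6a1 was 1.22, 2.21 and 1.88 in control mice and 3.08, 6.33 and 6.32 in cachectic mice (difference 1.54, two-sided exact permutation p = 0.1). Type IV chains as a class summed to 349, 366 and 409.8 FPKM in control mice and 276, 277 and 376 FPKM in cachectic mice, a 1.21-fold difference of the means. Here cachexia replicate 3 was above the control replicates 1 and 2, so the class sum overlapped between the groups.

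**Figure D3:**
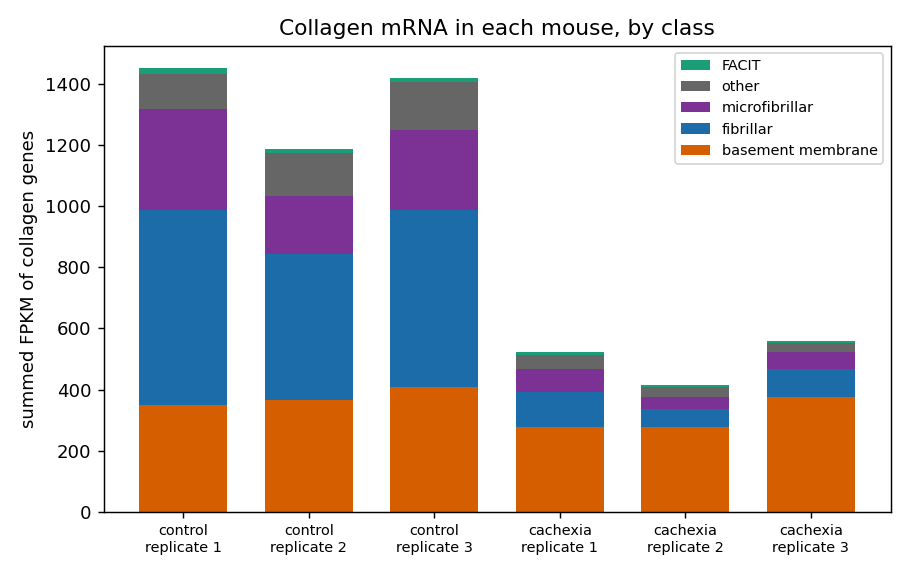
Summed FPKM of the collagen genes in each mouse, stacked by class (linear axis from 0). The fibrillar and microfibrillar parts are small in all 3 cachectic mice, where the basement membrane part makes up 52.7% to 67.3% of the sum, against 24.0% to 30.8% in control mice.

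The other type IV chains form the networks of specialized basement membranes, and all of them fell from much lower levels. Col4a5 was at 84.9, 46.8 and 72.8 CPM in control mice and 21.5, 15.6 and 12.7 CPM in cachectic mice (log2 fold change -2.04 ± 0.27 SE, adjusted p = 0.00407). Col4a6, its neighbor on chromosome X, was at 32.5, 17.3 and 24.9 CPM and 10.4, 9.27 and 7.15 CPM (log2 fold change -1.47 ± 0.26 SE, adjusted p = 0.0101). These genes lie head to head with 1308 bases between them, and both calls held under every setting tried. The ratio of Col4a5 to Col4a6 in FPKM was 3.10, 3.22 and 3.46 in control mice and 2.44, 2.00 and 2.10 in cachectic mice (difference -0.59 on the log2 scale, two-sided exact permutation p = 0.1). The ratio of Col4a1 to Col4a5 was 15.6, 31.6 and 21.9 in control mice and 48.7, 67.3 and 122 in cachectic mice (difference 1.74, two-sided exact permutation p = 0.1).

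Col4a3 and Col4a4, known from the basement membrane of the kidney glomerulus, lie head to head on chromosome 1 with 71 bases between them. Col4a4 was at 49.9, 13.7 and 16.8 CPM in control mice and 7.52, 3.07 and 3.93 CPM in cachectic mice (log2 fold change -2.47 ± 0.56 SE, adjusted p = 0.0233). Col4a3 was at 17.5, 6.53 and 6.01 CPM and 3.15, 0.553 and 1.84 CPM (log2 fold change -2.43 ± 0.65 SE, adjusted p = 0.0393). In both, control replicate 1 stood far above the other controls, and the groups did not overlap. Both calls were lost with single mice left out. For Col4a4 the adjusted p was 0.0640 and 0.0675 without cachexia replicates 2 and 3, and without control replicate 1 the log2 fold change was -1.65. For Col4a3 the adjusted p was 0.0890, 0.0647 and 0.0681 without control replicates 1, 2 and 3, and 0.0657 and 0.0938 without cachexia replicates 2 and 3, and its log2 fold change was -1.76 with control replicate 1 left out and -3.07 with cachexia replicate 1 left out. The number of type IV chains that fell was accordingly 2 of 6 with cachexia replicate 2 or 3 left out.

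FACITs were a small part of collagen RNA, and their sum was 18.4, 14.4 and 13.2 FPKM in control mice and 9.81, 4.45 and 6.23 FPKM in cachectic mice. The sum was lower in every cachectic mouse. Col14a1 (chr15:55307750-55520803), which binds the surface of type I fibrils, was the most abundant of them by FPKM. It was at 77.4, 72.4 and 66.4 CPM in control mice and 42.5, 13.8 and 12.0 CPM in cachectic mice (log2 fold change -1.66 ± 0.45 SE, adjusted p = 0.0398). The controls were close together, and cachexia replicate 1 lay between them and the other cachectic mice. Without cachexia replicate 1 the log2 fold change was -2.48 and the adjusted p 0.00212, whereas the adjusted p was 0.0792, 0.0939 and 0.0942 without control replicates 1, 2 and 3 and 0.0918 and 0.0795 without cachexia replicates 2 and 3. Col16a1, another fibril-associated chain, was at 40.1, 20.4 and 20.2 CPM in control mice and 16.3, 8.60 and 10.6 CPM in cachectic mice (log2 fold change -1.18 ± 0.34 SE, adjusted p = 0.0491), just under the threshold. Its adjusted p was 0.105, 0.0692 and 0.0758 without control replicates 1, 2 and 3, and 0.117 with cachexia replicate 2 or 3 left out, and its log2 fold change was -0.77 without control replicate 1. With any of these 5 mice left out, therefore, neither Col14a1 nor Col16a1 passed. Across the 5 FACITs tested, the log2 fold change had a median of 0.01.

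Col12a1, also a FACIT of connective tissue, showed no difference beyond its spread, with 8.68, 11.9 and 6.91 CPM in control mice and 9.51, 4.48 and 13.8 CPM in cachectic mice (log2 fold change 0.01, 95% interval -0.91 to 0.94). Col20a1 was at 2.91, 1.72 and 1.64 CPM in control mice and 3.50, 3.81 and 9.44 CPM in cachectic mice (log2 fold change 1.41 ± 0.48 SE, adjusted p = 0.0787). Every cachectic mouse was above every control mouse, and cachexia replicate 3 was the highest by far. DESeq2 called it higher (adjusted p = 0.0250), and without cachexia replicate 3 its log2 fold change was 0.80 (edgeR adjusted p = 0.204). Col9a3 had a log2 fold change of 0.99 (adjusted p = 0.196) at levels of at most 1.38 CPM. Col9a1, Col9a2, Col19a1 and Col22a1 were not tested.

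Among collagens of other types, those of the basement membrane zone were the most abundant. Col15a1 (chr4:47208161-47313167) and Col18a1 (chr10:77052178-77166548) encode related collagens (multiplexins), the latter the source of endostatin. Col15a1 was at 471, 693 and 760.0 CPM in control mice and 121, 134 and 70.4 CPM in cachectic mice (log2 fold change -2.56 ± 0.30 SE, adjusted p = 0.00276), and its call held under every setting tried. Here control replicate 1 was the lowest control. Col18a1 was at 179, 165 and 208 CPM in control mice and 145, 65.9 and 102 CPM in cachectic mice (log2 fold change -0.82 ± 0.27 SE, adjusted p = 0.0721, 95% interval -1.44 to -0.20). Its groups did not overlap, but it did not pass the test except with DESeq2 (adjusted p = 0.0198) and without cachexia replicate 1 (0.0272). The ratio of Col15a1 to Col18a1 in FPKM was 2.91, 4.64 and 4.04 in control mice and 0.924, 2.24 and 0.765 in cachectic mice (difference -1.70 on the log2 scale, two-sided exact permutation p = 0.1). Col15a1 was thus the more abundant of the pair in every control mouse, and in cachectic mice in replicate 2 alone.

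Col28a1, a collagen known from peripheral nerve, was at 23.3, 21.1 and 18.6 CPM in control mice and 10.3, 12.6 and 14.9 CPM in cachectic mice (log2 fold change -0.74 ± 0.18 SE, adjusted p = 0.0307). The groups did not overlap, but the adjusted p was 0.0751, 0.0931 and 0.0747 without control replicates 1, 2 and 3 and 0.0751 and 0.0670 without cachexia replicates 1 and 2. Col8a2, a chain of the short-chain collagen type VIII, was at 19.5, 2.52 and 3.12 CPM in control mice and 1.69, 1.60 and 0.852 CPM in cachectic mice, and control replicate 1 stood far above the other controls (log2 fold change -2.60 ± 0.82 SE, adjusted p = 0.0648). Without that mouse its log2 fold change was -1.02 (adjusted p = 0.140), whereas DESeq2 (0.0032) and the fit without a filter (0.0314) called it lower. Col8a1, its partner chain, was at 23.8, 16.9 and 22.5 CPM and 21.2, 13.0 and 16.7 CPM (log2 fold change -0.31 ± 0.22 SE, adjusted p = 0.353). Col23a1, a transmembrane collagen, was at 20.2, 4.99 and 10.3 CPM and 6.65, 4.30 and 3.54 CPM (log2 fold change -1.29 ± 0.49 SE, adjusted p = 0.109), with groups that overlapped, and it passed the test without control replicate 2 (adjusted p = 0.0485) and with DESeq2 (0.0391), while without control replicate 1 its log2 fold change was -0.66 (adjusted p = 0.306). Col7a1, the collagen of anchoring fibrils, and Col17a1, the transmembrane collagen of hemidesmosomes, had positive fold changes that did not pass the test (log2 0.49 and 1.05). Without cachexia replicate 2 the value of Col17a1 was 0.43, and without cachexia replicate 3 that of Col7a1 was -0.0384. Each had a mean level under 3 CPM in both groups. Col10a1, Col13a1, Col25a1 and Col26a1 were not tested. The 11 untested collagens had between 2 and 62 counts in all 6 mice together, and in 8 of them control replicate 1 alone had the highest count, with 2 more in which it shared the highest count with a cachectic mouse. Col11a1, with 30, 5 and 3 counts in control mice and 2, 0 and 0 in cachectic mice, and Col22a1, with 15, 5 and 3 and with 2, 2 and 1 counts, had groups that did not overlap.

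The strand setting of the counting is not given, and 13 of the 44 collagens share exon bases with another gene in GENCODE M21, so reads in shared bases cannot be assigned with certainty. Col4a1 and Col4a2 share them with each other, Col3a1 with Gm47302, Col15a1 with Gm12426, Col5a1 with 2810430I11Rik and Gm13372, Col6a6 with Gm38314, and Col4a3 with C430014B12Rik. Col20a1 shares them with BX649560.1 and Col9a3 with Tcfl5, and both collagens were higher in every cachectic mouse. Col7a1 shares them with Mir711, Col22a1 with Gm16308, Col6a4 with Gm36993 and Gm47575, and Col10a1 with Nt5dc1. For Col3a1, Col20a1 and Col7a1 the other gene lies on the same strand, so no strand setting would separate the reads.

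Genes that act on collagen after translation of its chains were described by lists of pathway steps. Prolyl and lysyl residues of the chains are modified in the endoplasmic reticulum, where prolyl hydroxylation stabilizes the helix. Of 14 tested genes of this step, 3 fell (median log2 fold change -0.17), against 8.63% of all tested genes, P4ha2 (log2 fold change -0.75 ± 0.16 SE, adjusted p = 0.0182), P4ha1 (log2 fold change -0.50 ± 0.12 SE, adjusted p = 0.0275) and P3h1 (log2 fold change -0.51 ± 0.14 SE, adjusted p = 0.0477), all of them prolyl hydroxylase genes. None of the 3 passed with control replicate 2 or 3 left out (adjusted p of 0.0637 to 0.107), none passed with cachexia replicate 1 left out (0.0501 to 0.0747), P4ha2 alone passed with control replicate 1 or cachexia replicate 2 left out, and P3h1 passed in none of the 6 fits that left out a mouse. The count for the whole list was thus 0 to 2 in these fits. Folding and export of procollagen was represented by 11 tested genes, of which 3 fell (median -0.38), against 8.63% of all tested genes. Serpinh1, the collagen chaperone HSP47, was at 472, 589 and 529 CPM in control mice and 222, 166 and 300.0 CPM in cachectic mice (log2 fold change -1.21 ± 0.23 SE, adjusted p = 0.0138). Creb3l1, a transcription factor of the secretory pathway for matrix, fell as well (log2 fold change -1.41 ± 0.25 SE, adjusted p = 0.00971), as did Sec23a, a coat protein of vesicles that carry procollagen (log2 fold change -0.56 ± 0.14 SE, adjusted p = 0.0313). With control replicate 2 or 3 left out, Creb3l1 alone passed (Serpinh1 adjusted p = 0.0503 and 0.0545), and 5 genes passed without cachexia replicate 3. Sec23a also missed the threshold without cachexia replicates 1 and 2 (0.0508 and 0.0670).

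Outside the cell, propeptides are removed by proteases before fibrils form. Of 8 tested genes of this step, 4 fell and 1 rose (median -0.90), against 8.63% and 9.0% of all tested genes. Adamts2, the main N-propeptidase, was at 231, 169 and 178 CPM in control mice and 69.0, 62.3 and 67.5 CPM in cachectic mice (log2 fold change -1.54 ± 0.16 SE, adjusted p = 0.00196). Bmp1, a C-propeptidase, and Pcolce, its enhancer, fell too (log2 fold change -1.06 ± 0.14 SE, adjusted p = 0.00374 and log2 fold change -1.39 ± 0.24 SE, adjusted p = 0.00974), and these 3 calls held with each mouse left out in turn. Adamts14 (log2 fold change -1.10 ± 0.26 SE, adjusted p = 0.0274) kept its call only with cachexia replicate 3 left out (0.0516 to 0.0939 with each other mouse left out). The gene that rose, Tll1, a relative of Bmp1, is named because of its value (log2 fold change 1.22 ± 0.35 SE, adjusted p = 0.0476), and it passed only with cachexia replicate 1 or 3 left out. Among 6 tested cross-linking oxidases, Loxl1 (log2 fold change -1.48 ± 0.35 SE, adjusted p = 0.0263) and Loxl2 (log2 fold change -1.18 ± 0.32 SE, adjusted p = 0.0409) fell (median -0.72), again against 8.63%. Both calls were lost with any control replicate or cachexia replicate 1 left out (adjusted p of 0.0511 to 0.114), and 3 genes passed with cachexia replicate 3 left out.

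Of 19 tested proteoglycans and other organizers of fibrils, 7 fell and 1 rose (median -0.71), against 8.63% and 9.0% of all tested genes. Matn2, a matrilin that links matrix fibers, was at 190.2, 107 and 145 CPM in control mice and 23.7, 11.6 and 16.5 CPM in cachectic mice (log2 fold change -3.09 ± 0.31 SE, adjusted p = 0.00179). Fn1, fibronectin, on which collagen fibrils assemble, and Ogn, a small leucine-rich proteoglycan, also fell (log2 fold change -2.18 ± 0.33 SE, adjusted p = 0.00621 and log2 fold change -1.87 ± 0.29 SE, adjusted p = 0.00644). Thbs2, a matricellular protein, moved the opposite way, with 23.6, 31.2 and 23.2 CPM in control mice and 277, 74.7 and 316 CPM in cachectic mice (log2 fold change 3.10 ± 0.49 SE, adjusted p = 0.00748). Those 4 calls held with each mouse left out in turn, while the number that fell in this list was 3 with control replicate 2 or 3 left out, 4 with control replicate 1 left out and 5 or 6 with a cachectic mouse left out. Of 17 tested partners of type IV collagen in the basement membrane, 4 fell and 1 rose (median -0.31), against the same shares, and the number that rose is not above its share. Nid2, a nidogen that links laminin to type IV collagen, was at 190.2, 219 and 281 CPM in control mice and 78.7, 42.7 and 38.4 CPM in cachectic mice (log2 fold change -2.11 ± 0.30 SE, adjusted p = 0.00494). Its relative Nid1 (log2 fold change -1.05 ± 0.26 SE, adjusted p = 0.0293) and the laminin chains Lama2 (log2 fold change -1.50 ± 0.25 SE, adjusted p = 0.00821) and Lamc1 (log2 fold change -0.82 ± 0.17 SE, adjusted p = 0.017) fell as well. Without control replicates 2 and 3, Lamc1 (0.0673 and 0.0791) and Nid1 (0.0883 and 0.109) missed the threshold, as did Nid1 without cachexia replicates 2 and 3 (0.0672 and 0.0612). Lama1, named because it was the gene of this list that rose (log2 fold change 1.62 ± 0.44 SE, adjusted p = 0.0409), passed only with cachexia replicate 3 left out, and 2 genes of the list fell with control replicate 3 left out.

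Of 13 tested receptors and uptake proteins for collagen, 4 fell and 1 rose (median -0.46), against 8.63% and 9.0% of all tested genes, so the number that rose is not above its share. Antxr2, which takes up type VI collagen, was at 152, 174 and 188 CPM in control mice and 86.0, 62.4 and 62.0 CPM in cachectic mice (log2 fold change -1.29 ± 0.17 SE, adjusted p = 0.00418). The collagen-binding kinase Ddr1 fell (log2 fold change -1.60 ± 0.23 SE, adjusted p = 0.00519), and both calls held with each mouse left out in turn. Lair1, an inhibitory collagen receptor of immune cells, fell (log2 fold change -1.55 ± 0.37 SE, adjusted p = 0.0279), and so did Ddr2, which is named because of its value (log2 fold change -0.77 ± 0.21 SE, adjusted p = 0.0415). Adgrg1, an adhesion receptor that binds Col3a1, rose from 118 ± 46.0 to 297 ± 45.9 CPM (log2 fold change 1.33 ± 0.27 SE, adjusted p = 0.017). Without control replicates 2 and 3 the adjusted p was 0.0651 and 0.0701 for Adgrg1 and 0.0901 and 0.0985 for Lair1, and it was 0.0756 for Lair1 without cachexia replicate 1. Ddr2 passed only with control replicate 1 or cachexia replicate 1 left out, and the number that fell was 2 with control replicate 2 or 3 left out.

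**Figure D4:**
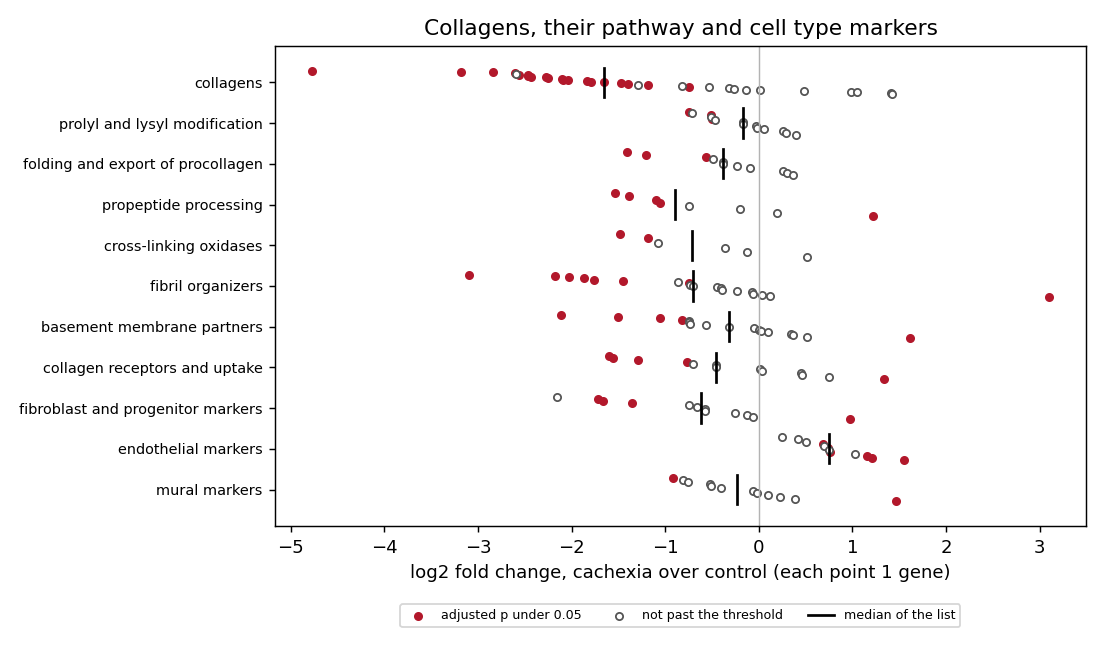
Log2 fold change of each tested gene of the collagens, of 7 lists of collagen pathway genes and of markers of fibroblasts, endothelial cells and mural cells, cachectic over control mice, with a line at the median of each list. The collagens have the lowest median (-1.66), and the endothelial markers have the highest (0.75).

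Markers of cell types that make collagens were examined beside these values. Of 12 fibroblast and progenitor markers, 3 fell and 1 rose (median log2 fold change -0.62), against 8.63% and 9.0% of all tested genes. The log2 fold change was below 0 for 11 of the 12, against 8037 of the 16003 tested genes. Groups did not overlap for 5 markers lower and 1 higher in cachectic mice, against 20.1% and 20.4% of all tested genes. Summed CPM ranged from 13394 to 15405 in control mice and from 6342 to 14420 in cachectic mice, so the ranges overlapped. Most of this sum was Gsn alone (11395 ± 927 CPM in control and 7226 ± 3840 CPM in cachectic mice). Fbn1, a microfibril protein (log2 fold change -1.66 ± 0.20 SE, adjusted p = 0.00295), Thy1 (log2 fold change -1.35 ± 0.21 SE, adjusted p = 0.00667) and Pi16 (log2 fold change -1.72 ± 0.40 SE, adjusted p = 0.0259) fell, and Ly6a rose (log2 fold change 0.97 ± 0.17 SE, adjusted p = 0.00935). The defining fibroblast marker Pdgfra was at 128, 146 and 116 CPM in control mice and 105, 66.6 and 60.7 CPM in cachectic mice (log2 fold change -0.75 ± 0.22 SE, adjusted p = 0.0518), and it passed without cachexia replicate 1 (0.0139). Dcn, which fibroblasts express strongly, was at 2058 ± 186 CPM in control mice and 1976 ± 342 CPM in cachectic mice (log2 fold change -0.06, adjusted p = 0.873). Without single mice Pi16 missed the threshold in 3 of the 6 fits (0.0616 to 0.0714, without control replicates 1 and 2 and cachexia replicate 3), Ly6a missed it without control replicate 3 (0.0538), and 5 markers fell without cachexia replicate 1. Of 12 endothelial markers, 6 rose (median 0.75), against 9.0% of all tested genes. Their summed CPM was 1813 to 1934 in control mice and 2834 to 4181 in cachectic mice, higher in every cachectic mouse. Pecam1, a junction protein of endothelium, was at 366, 353 and 346 CPM in control mice and 724, 1072 and 584 CPM in cachectic mice (log2 fold change 1.16 ± 0.24 SE, adjusted p = 0.017). Endothelial cells and mural cells are among the several cell types that make Col4a1 and Col4a2, and their part in the levels of these chains was not tested. The number of endothelial markers that rose was 2 with control replicate 2 or 3 left out, where Pecam1 missed the threshold (0.0648 and 0.0756), and 9 without cachexia replicate 3. Among all tested genes, 615, 427 and 1232 rose in these 3 fits, against 1440 with every mouse kept. Of 12 mural markers, 1 rose (Higd1b) and 1 fell (Rgs5), which is about the share among all tested genes in each direction (9.0% and 8.63%). Their summed CPM was 1728 to 1932 in control mice and 983 to 1583 in cachectic mice, lower in every cachectic mouse. The largest parts of this sum were Rgs5 (518 ± 16.9 CPM in control and 274 ± 77.1 CPM in cachectic mice) and Mcam (486 ± 78.0 and 341 ± 144 CPM). The log2 fold change was below 0 for 8 and above 0 for 4 of the 12 (median -0.23). The defining mural marker Pdgfrb was at 130 ± 4.66 and 139 ± 40.8 CPM (log2 fold change 0.10, adjusted p = 0.779). Rgs5 missed the threshold without each of the control replicates (0.0624 to 0.0981), and 2 mural markers fell without cachexia replicate 1. The part of these cell types in the collagen differences was not tested.

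Markers of adipocytes, which define the tissue, were present in every mouse, with a summed CPM of 17786 to 23719 in control mice and 16434 to 29891 in cachectic mice (median log2 fold change -0.07). Their members went both ways, as Pnpla2 (log2 fold change 1.08 ± 0.23 SE, adjusted p = 0.0197) and Cidec (log2 fold change 0.87 ± 0.22 SE, adjusted p = 0.0322), proteins of lipid droplets, rose and Lep, the hormone leptin, fell (log2 fold change -3.14 ± 0.89 SE, adjusted p = 0.0475), 2 and 1 of 12 against 9.0% and 8.63% of all tested genes. With control replicate 2 or 3 left out none of the 3 passed (0.0758 to 0.117), and Cidec passed in none of the 6 fits that left out a mouse. Lep also missed the threshold with control replicate 1 or cachexia replicate 1 left out (0.0774 and 0.123) and was at -4.12 without cachexia replicate 3, and Pnpla2 missed it without cachexia replicate 1 (0.0517). Adipoq was at 1899 ± 249 CPM in control mice and 2762 ± 1288 CPM in cachectic mice (log2 fold change 0.54, adjusted p = 0.305). Schwann cell markers, of interest because Col28a1 is known from nerve, summed to 347 to 528 CPM in control mice and 212 to 307 CPM in cachectic mice, and 2 of 9 tested markers fell, against 8.63% of all tested genes (1 with control replicate 3 or cachexia replicate 2 left out, 3 with cachexia replicate 1 left out). Most of this sum was Scn7a alone (404 ± 104 CPM in control and 232 ± 56.6 CPM in cachectic mice), which did not pass the test (adjusted p = 0.0711). The 2 that fell, S100b and Sox10, were low, with control means of 2.20 ± 0.797 and 1.11 ± 0.443 CPM. Mesothelial markers summed to 457 to 526 and 243 to 513 CPM (median log2 fold change -0.28), and macrophage markers to 1599 to 2002 and 1357 to 2085 CPM (-0.09). Of the 12 macrophage markers, Cd163 (log2 fold change 0.93 ± 0.23 SE, adjusted p = 0.0293) and Mertk (log2 fold change 0.85 ± 0.21 SE, adjusted p = 0.032) rose and Mrc1 (log2 fold change -0.90 ± 0.20 SE, adjusted p = 0.021) fell, 2 and 1 against 9.0% and 8.63% of all tested genes. None of them passed with control replicate 2 or 3 left out (0.0642 to 0.107). With control replicate 1 left out Cd163 and Mertk missed the threshold (0.0656 and 0.0770), Cd163 also did without cachexia replicates 1 and 2 (0.0663 and 0.0659), and Mrc1 did without cachexia replicates 2 and 3 (0.0545 and 0.0503). Neutrophil markers summed to 32.5 to 49.9 CPM in control mice and 259 to 819 CPM in cachectic mice, and 9 of 10 tested markers rose, against 9.0% of all tested genes (6 with control replicate 1 or 3 left out). Markers of epididymis epithelium summed to 6.12, 1.26 and 1.53 CPM in control mice and 1.04 to 1.40 CPM in cachectic mice, and none was tested. Control replicate 1 was thus the highest mouse here as well. Of the mesothelial list, Krt8 (94.7, 13.6 and 8.78 CPM in control mice) and Krt18 (43.2, 4.41 and 2.95 CPM) were also far higher in that mouse than in the other controls, whereas Krt7 was lower in it (6.92, 12.3 and 9.92 CPM). The part of these cells in the collagen differences was likewise not tested.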

How the data were processed

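RNA of eWAT from 3 cachectic and 3 control mice was extracted with miRNeasy kits and prepared with the NEBNext Ultra kit. The authors aligned reads with Hisat2, counted them per gene with featureCounts 1.5.0-p3 and deposited these counts as they were. Deposited FPKM values were computed by the authors from count, gene length and library total, which here carried a further factor per sample of 0.932 to 1.06. A deposited table of the authors' fold changes and p-values (DESeq2 1.16.1) was not used. The labels name mm9, but the coordinates in the files are those of GRCm38, since GENCODE M21 holds 99.8% of the identifiers, with equal coordinates for 98.3% of them. Strand use in counting is not given in the sources used here.

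Counts were tested with edgeR 4.0.16 in R 4.3.3 (filterByExpr, TMM factors of 0.937 to 1.07, glmQLFit and glmQLFTest with no covariate), and p-values were adjusted by Benjamini-Hochberg across the 16003 tested genes, with 0.05 as the threshold. Standard errors were derived from the F statistic (size of the log2 fold change over its root). The biological coefficient of variation was 0.264, and in a comparison of all 15 sample pairs none was near-identical. Ratios of FPKM between chains were compared by exact permutation tests over samples, and lists were described by counts and medians without a set test. Groups came from the sample labels. The collagen genes, their classes and the gene lists were chosen with earlier results of these data known. Values in each mouse are given for every collagen that passed, for the chain with the highest FPKM of each class and for the chains they assemble with, and a few further collagens were added after their values were seen. At most 4 genes of each other list are named, those with the smallest p, plus defining markers, and Tll1, Lama1 and Ddr2 were named after their values were seen. The other settings were RLE factors, plain totals, no filter, at least 10 counts in every sample, protein-coding genes alone, DESeq2 1.42.0, limma-voom and limma 3.58.1 on log2 FPKM (pseudocount 1 or 0.1), a replicate block, and each sample left out. Scripts were tested on simulated data. Figures were drawn with matplotlib 3.10.9. Promoter windows came from RefSeq (GRCm38.p6).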

Additional observations from a re-analysis of the deposited data

How the results depend on the processing

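Of the 20 collagens that fell, 14 did so under all 16 other settings. These were Col6a5, Col3a1, Col6a6, Col1a1, Col15a1, Col5a3, Col6a2, Col1a2, Col5a1, Col6a3, Col4a5, Col5a2, Col6a1 and Col4a6. The number that fell was 20 with RLE factors, 18 with plain totals, 21 without a filter, 19 with at least 10 counts in every sample, 19 with protein-coding genes alone, 23 with DESeq2, 19 with limma-voom, 16 and 18 with limma on log2 FPKM (pseudocount 1 and 0.1) and 14 to 20 with a mouse left out. The number that rose was 1 with DESeq2 (Col20a1) in place of 0. Over 524 comparisons of a collagen with another setting, 469 kept direction and side of the threshold, 38 lost the call, 7 gained it and 10 reversed direction, and the cause was not tested.

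The reversals concerned genes far from the threshold. The log2 fold change of Col12a1 (0.01) was -0.100 with limma-voom, -0.0129 and -0.0761 with log2 FPKM (pseudocount 1 and 0.1), -0.0722 with the replicate block and between -0.39 and 0.343 with a mouse left out. With a mouse left out, it lay between -0.991 and 0.0163 for Col6a4, -0.0384 and 0.998 for Col7a1, -0.179 and 0.0678 for Dcn and -0.17 and 0.221 for Pdgfrb.

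The sample labels do not pair the mice by replicate number. Deviations of same-numbered samples from their group means correlated at -0.00314, -0.0113 and 0.00849. Those of the other pairs correlated at -0.0239 to 0.0226. With 3 samples in each group, such values cannot decide whether mice were paired. With the replicate block, 19 collagens fell, and Col28a1 lost its call (log2 fold change -0.75, adjusted p = 0.072). With log2 FPKM and a pseudocount of 1, the fold changes of low chains were smaller, as with Col4a4 (-1.16, adjusted p = 0.0593), Col4a3 (-0.71) and Col27a1 (-0.40). The 11 untested collagens, with at most 62 counts each over 6 mice, entered only the fit without a filter.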
